A study of Mus musculus with 12 samples.

Results

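Control mouse embryonic stem cells on day 6 of tamoxifen were compared with the same cells on day 1.5. The comparison took in 4 of the study's 12 arrays, those titled Control Day 6 and Control Day 1.5, with 2 replicates each. Both groups were mouse embryonic stem cells whose Ronin (Thap11) alleles were flanked by loxP sites (flox/flox). They carried no CreERT2, a Cre recombinase that works only once tamoxifen binds it, so the drug had no recombinase to switch on in them. The day 6 and day 1.5 cells both received 0.25 µM tamoxifen. The other 8 arrays held control cells of day 3 and CreERT2 flox/flox knockout cells of days 1.5, 3 and 6, again 2 per group. Cells had been plated at 100000 per 10 cm2 and were split on day 4 to the same density, so that the day 6 cells had grown for 2 days since the split and the day 1.5 cells for 1.5 days since plating. No group without tamoxifen was analysed here, so days in culture, days in the drug, the split and the extra time since plating cannot be told apart. The labels do not say whether the replicates were grown separately, and the p-values below measure only the spread between arrays.

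Embryonic stem cells divide rapidly and hold a transcription factor network around Pou5f1, Nanog and Sox2. When amino acids run short, proteins misfold or mitochondria fail, cells phosphorylate the initiation factor eIF2, which lowers protein synthesis overall but raises the translation of the transcription factor ATF4. ATF4 and its partners then switch on genes for amino acid synthesis, amino acid uptake and the charging of tRNAs. This program is called the integrated stress response. A second program that answers to growth conditions runs through serum response factor (SRF) and YAP, which read the state of the actin skeleton and of cell contacts and drive genes for actins, tropomyosins and other contractile proteins.

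The labelled cell type was borne out by its markers. All 10 embryonic stem cell markers were measured, with summed intensities of 76852 and 77033 on day 6 and 77994 and 80227 on day 1.5. Of the 10, 0 passed the test described below, against 1.57% of all genes. So few markers cannot show a count of 0 to depart from that share. Pou5f1 had intensities of 11248 and 11629 on day 6 and 11586 and 11454 on day 1.5, and Nanog had 5411 and 5725 on day 6 and 5495 and 5731 on day 1.5. The day 6 and day 1.5 arrays overlapped for both genes. Thap11, the floxed gene, had 1305 and 1382 on day 6 and 1262 and 1181 on day 1.5 in the control cells and did not pass the test (log2 fold change 0.14 ± 0.08 SE, adjusted p = 0.49). In the knockout cells it was down to 50.6 and 51.5 on day 6, against 327 and 354 on day 1.5. The median intensity over all probe sets, called the array median below, lay between 42.59 and 43.01 on the 4 control arrays.

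Few genes were called in the control cells between the days. Of 18194 genes, 285 passed limma's test at a Benjamini-Hochberg adjusted p of 0.05 (1.57%), of which 199 were higher on day 6 (1.09%) and 86 lower (0.473%). Only 4 genes rose and 1 fell by 2-fold or more, and the median size of a called change was 0.43 on the log2 scale. Day 6 and day 1.5 arrays did not overlap for any of the 285, which was also true of 46.1% of all genes. The same fit called 5490 genes (30.2%) in knockout cells of day 6 against day 1.5. It called 4966 (27.3%) in control cells of day 3 against day 1.5 and 5000 (27.5%) in control cells of day 6 against day 3, comparisons that share arrays with the one described here. The standard deviation of all genes' log2 fold changes was 0.15 for control cells of day 6 against day 1.5, 0.34 for knockout cells over the same span and 0.27 for control cells of day 3 against day 1.5.

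The count of 285 rested on every one of the 4 arrays. It was 51 without day 6 replicate 1, 18 without day 6 replicate 2, 28 without day 1.5 replicate 1 and 40 without day 1.5 replicate 2. A fit of the 6 control arrays alone called 6 genes, and a fit of the 4 compared arrays alone called 0, with 2486 at an unadjusted p under 0.05. All 285 kept their direction whichever array was left out, which had to be so because their day 6 and day 1.5 arrays did not overlap. Of the 285, 13 genes were called in each of the 4 reduced fits: Efemp1, Cubn, Krt8, Krt18, Krt19, Grb10, Dsp, Tagln, Cpe, Greb1l, Marveld3, Mfhas1 and Car2, the last 5 singled out after their values were seen. All 13 rose. The calls of 226 genes were lost in all 4 reduced fits. Genes described below as having risen or fallen are those called in the fit of all 12 arrays. The shares of all genes, 1.09% called higher and 0.473% lower, are those to set beside each list's counts below. Igf2, Lef1, Sema3c, Col1a1, Ctsa and Ctsl each had 1 other probe set, which was not called and had the opposite sign. Some genes with more probe sets were split: Acta2 had 2 others, 1 of the same sign, and Ajm1 had 3 others, 2 of the same sign. None of these others was called. The probe sets that read Aars, Acta2, Aldh18a1, Asns, Cubn, Dnmt3l, Dsp, Gbp2, Gpt2, Phgdh, Prss23, Sars, Sesn1, Sult6b1, Trib3 and Vldlr are of kinds that may share sequence with other transcripts, so their values are less certain in that respect.

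**Figure D1:**
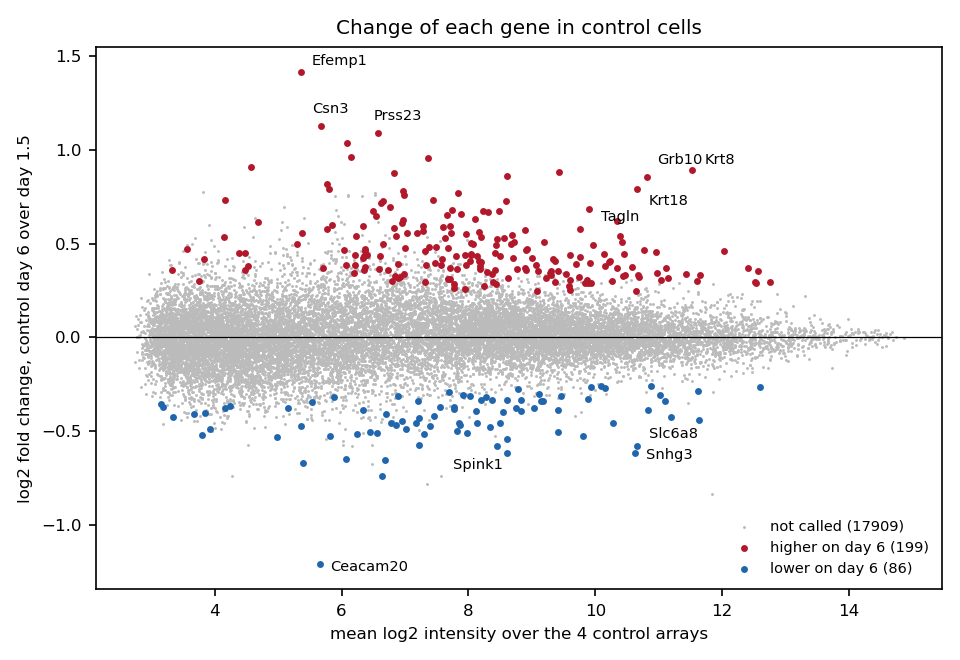
Log2 fold change of control day 6 over control day 1.5 (y) against the mean log2 intensity over the 4 arrays (x) for 18194 genes, with 199 called higher in red, 86 called lower in blue and the rest in grey. Most called genes changed by less than 2-fold, and the called genes run from dim to bright.

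Genes of the integrated stress response were among those that rose. Over 5 lists that hold its regulators, its secreted and other targets, amino acid synthesis, amino acid transport and tRNA charging, 94 genes were measured. Of these, 21 rose (1.09% of all genes did) and 1 fell (0.473%). The median log2 fold change of the 94 was 0.16, against 0.0038 for all genes, and 73 of them lay above 0. The changes were small, from 1.19-fold for Yars to 1.55-fold for Ddit3. These lists were known from earlier results of the same arrays to have moved, so their count is a description and not independent evidence.

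Promoter sequences are shown for 4 of the stress response genes that rose, because ATF4 with its partners is known to bind an element of the form TGATGNAA. In the 250 bases before the annotated start (RefSeq, GRCm38.p6) the element was searched on both strands. It was found in 6 of the 21 members that rose (28.6%), namely Aars, Asns, Chac1, Nupr1, Pck2 and Vldlr. It was found in 10 of 53 other measured members that had a sequence (18.9%), and in 1056 of 27025 promoters of all genes (3.91%). Capitals mark the match, which in Nupr1, Chac1 and Pck2 is read on the opposite strand. It lay 23 to 16 bases before the start in Asns (chr6:7693210-7693459, minus strand), 110 to 103 in Nupr1 (chr7:126625471-126625720, minus strand), 193 to 186 in Chac1 (chr2:119350992-119351241, plus strand) and 103 to 96 in Pck2 (chr14:55540016-55540265, plus strand).
Asns: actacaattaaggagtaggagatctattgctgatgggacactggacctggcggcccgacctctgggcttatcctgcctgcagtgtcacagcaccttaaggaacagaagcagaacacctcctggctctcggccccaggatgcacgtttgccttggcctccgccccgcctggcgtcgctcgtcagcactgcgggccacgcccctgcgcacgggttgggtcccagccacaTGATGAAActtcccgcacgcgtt
Nupr1: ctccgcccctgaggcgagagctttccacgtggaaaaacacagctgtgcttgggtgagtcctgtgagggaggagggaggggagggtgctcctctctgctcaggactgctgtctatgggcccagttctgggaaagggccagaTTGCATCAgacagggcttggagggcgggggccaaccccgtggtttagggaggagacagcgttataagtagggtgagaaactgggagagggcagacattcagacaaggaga
Chac1: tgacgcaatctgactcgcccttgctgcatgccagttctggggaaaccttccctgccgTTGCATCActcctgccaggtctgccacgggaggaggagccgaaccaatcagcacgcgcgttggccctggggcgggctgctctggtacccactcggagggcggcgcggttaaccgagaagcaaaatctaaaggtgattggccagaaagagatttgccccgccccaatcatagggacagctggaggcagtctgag
Pck2: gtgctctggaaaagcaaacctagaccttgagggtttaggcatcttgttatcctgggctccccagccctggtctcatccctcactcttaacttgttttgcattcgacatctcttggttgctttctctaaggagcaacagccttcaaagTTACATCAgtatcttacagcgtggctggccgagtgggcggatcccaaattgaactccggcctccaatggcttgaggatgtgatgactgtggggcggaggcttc
A match is a run of letters and was not tested as a binding site.

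The sensors at the top of the response did not pass the test. They are the 4 kinases that phosphorylate eIF2: Eif2ak1, which answers to heme and mitochondrial stress, Eif2ak2 (PKR), which answers to double-stranded RNA, Eif2ak3 (PERK), which answers to misfolded proteins in the endoplasmic reticulum, and Eif2ak4 (GCN2), which answers to uncharged tRNA. Eif2ak1 had intensities of 314 and 302 on day 6 and 313 and 299 on day 1.5 (log2 fold change 0.009), and Eif2ak2 had 60.5 and 71.6 on day 6 and 71.6 and 67.6 on day 1.5 (-0.08). The arrays of the days overlapped for both. Eif2ak3 had intensities of 461 and 453 on day 6 and 421 and 431 on day 1.5 (log2 fold change 0.10), and Eif2ak4 had 362 and 349.6 on day 6 and 344 and 336 on day 1.5 (0.07). Atf4 itself, which is controlled largely at translation, had 6474 and 6409 on day 6 and 5775 and 5481 on day 1.5, a log2 fold change of 0.20 ± 0.06 that missed the threshold (adjusted p = 0.17). The day 6 arrays were above the day 1.5 arrays for Atf4, Eif2ak3 and Eif2ak4. Ppp1r15a, the phosphatase subunit that reverses eIF2 phosphorylation, had 668 and 706 on day 6 and 729 and 705 on day 1.5, with overlapping arrays.

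Of the 21 regulators, 7 rose and 0 fell, with a median of 0.22. Ddit3, which encodes the transcription factor CHOP, had intensities of 343 and 341 on day 6 and 238 and 205 on day 1.5 (log2 fold change 0.63 ± 0.10, limma adjusted p = 0.024), while the gene's other probe set was not called and ran the other way. Nupr1, a small stress-induced nuclear protein, had 1563 and 1639 on day 6 and 1044 and 1039.6 on day 1.5 (log2 0.62 ± 0.06, adjusted p = 0.0046). In both genes each day 6 array lay above each day 1.5 array, and the gap between days was wider than the gap between replicates. The leucine zipper factor gene Atf5 had 506 and 485 on day 6 and 333 and 346 on day 1.5 (log2 0.55 ± 0.07, limma adjusted p = 0.014). Cebpb and Cebpg, whose proteins pair with ATF4, rose by 0.41 and 0.36. A pair of feedback and effector genes also rose: Chac1, which encodes an enzyme that breaks down glutathione, with 863 and 868 on day 6 and 704 and 698 on day 1.5 (log2 0.30 ± 0.05), and Trib3, a pseudokinase that restrains ATF4, with 1031 and 1068 on day 6 and 886 and 828 on day 1.5 (log2 0.29 ± 0.06). Their adjusted p-values from limma were 0.03 and 0.046. The day 6 arrays were the higher ones in each of the 7. The count of 7 was 2 without day 6 replicate 1, 0 without day 6 replicate 2 and 1 without either day 1.5 replicate.

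Among the 13 secreted and other targets, 3 rose and 0 fell. Vldlr, a lipoprotein receptor, had 179 and 202 on day 6 and 127 and 130.2 on day 1.5 (log2 fold change 0.57 ± 0.10). Stc2, the secreted glycoprotein stanniocalcin 2, had 359 and 346 on day 6 and 250.3 and 235 on day 1.5 (log2 0.54 ± 0.06), and a second of its probe sets was called in the same direction. Vegfa, the growth factor for blood vessels, had 305 and 305 on day 6 and 217 and 233 on day 1.5 (log2 0.44 ± 0.06). The groups did not overlap in any of the 3, and limma's adjusted p-values were 0.032, 0.0091 and 0.012. Fgf21, another secreted target, had 54.2 and 36.1 on day 6 and 32.1 and 30.8 on day 1.5 and did not pass the test. Of the 3 calls, 0 were left without either day 6 replicate and 1 without either day 1.5 replicate.

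Amino acid synthesis and one-carbon genes rose in 7 of 22 cases and fell in 1, with a median of 0.17. The serine pathway was represented at each of its 3 steps. Phgdh, Psat1 and Psph encode the enzymes that turn a glycolytic intermediate into serine. Phgdh had intensities of 6496 and 6434 on day 6 and 5382 and 5153 on day 1.5 (log2 fold change 0.30 ± 0.06, limma adjusted p = 0.047). Psat1 had 6155 and 6177 on day 6 and 4815 and 4735 on day 1.5 (log2 0.37 ± 0.05, adjusted p = 0.014), and Psph had 1784 and 1894 on day 6 and 1473 and 1469 on day 1.5 (log2 0.32 ± 0.06, adjusted p = 0.033). The day 6 arrays were above the day 1.5 arrays throughout. Asns, which makes asparagine and is a standard reporter of the response, had 7756 and 7606 on day 6 and 6215 and 6296 on day 1.5 (log2 0.30 ± 0.05, limma adjusted p = 0.019). Both day 6 arrays were higher, and the rise was 1.23-fold. Pck2, the mitochondrial enzyme that makes phosphoenolpyruvate, had 1611 and 1671 on day 6 and 1175 and 1134 on day 1.5 (log2 0.51 ± 0.08, adjusted p = 0.018). It had the largest rise of the list, ahead of the alanine transaminase gene Gpt2 at 0.41 and the proline synthesis gene Aldh18a1 at 0.34. Glul, which makes glutamine, went the other way, with 2805 and 2891 on day 6 and 3490.1 and 3447 on day 1.5 (log2 -0.28 ± 0.06, limma adjusted p = 0.048). The mitochondrial folate genes did not pass: Shmt2 stood at 0.24, Mthfd2 at 0.17 and Aldh1l2 at 0.40. Leaving out any 1 of the 4 arrays left 0 of the 7 called.

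Of 19 amino acid transporters only the glycine transporter gene Slc6a9 passed, with 309 and 304 on day 6 and 214 and 236 on day 1.5 (log2 fold change 0.45 ± 0.08, limma adjusted p = 0.031). It lost its call without any 1 of the 4 arrays. The neutral amino acid transporter gene Slc7a5 had 5416 and 5386 on day 6 and 4779.7 and 4544 on day 1.5 without passing, and the arginine transporter gene Slc7a3 had 4494 and 4487 on day 6 and 5111 and 5073 on day 1.5, lower on day 6 and also without passing. Slc7a11, the cystine transporter gene that the response often raises, was dim at 12.5 and 15.4 on day 6 and 13.5 and 13.9 on day 1.5, with overlapping arrays. The median of the 19 transporters was 0.018.

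The cytosolic aminoacyl-tRNA synthetases, which load amino acids onto tRNAs, had 3 of 19 members called higher and 0 lower. Aars, for alanine, had 6921 and 6782 on day 6 and 5528 and 5208 on day 1.5 (log2 fold change 0.35 ± 0.06, limma adjusted p = 0.033), read by a probe set that may share sequence with other transcripts. Sars, for serine, rose by 0.33 and Yars, for tyrosine, by 0.25. Their median was 0.17 and 18 of the 19 lay above 0. For 16 of the 19 both day 6 arrays were above both day 1.5 arrays, as they were for 4614 of all 18194 genes. The count of 3 was 0 without any 1 of the 4 arrays, and it was 10 when the dimmest 40% of genes were left out and 12 when limma's prior was allowed to depend on intensity, with robust moderation.

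**Figure D2:**
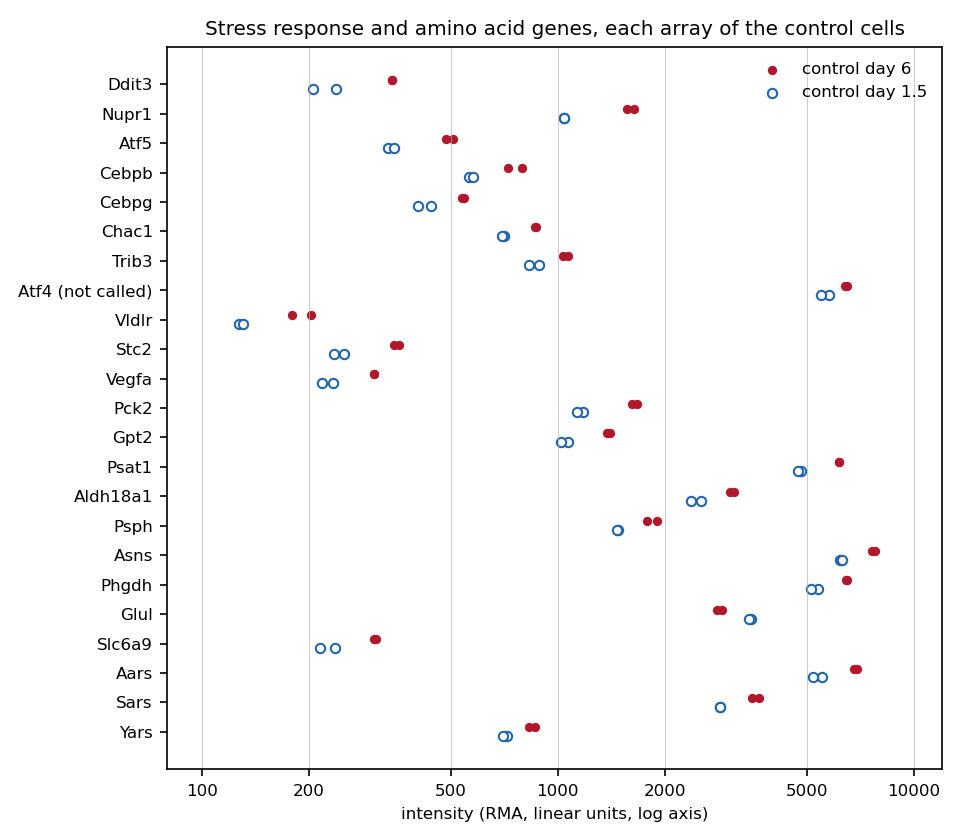
Intensities of 23 stress response and amino acid genes on each control array, on a log axis, with day 6 as filled red points and day 1.5 as open blue points. In 22 of the 23, Atf4 (not called) included, both day 6 arrays lie above both day 1.5 arrays, and Glul runs the other way. Apart from Atf4 and Glul, the genes shown are the 21 that rose. No called gene had overlapping arrays, so the choice of genes led to this count. Both day 6 arrays were the higher ones in 4614 of all 18194 genes.

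The lists of other stress programs held 6 to 24 genes each, too few for a count of 0 to depart from the 1.57% of all genes called, so the share at an unadjusted p under 0.05 is given beside it, which was 15.2% over all genes. Chaperones of the endoplasmic reticulum had 0 of 22 called by limma and 2 at an unadjusted p under 0.05 (9.09%), with Hspa5 (BiP) at 8194 and 7985 on day 6 and 7252 and 7304 on day 1.5 (log2 fold change 0.15 ± 0.05, adjusted p = 0.15). Heat shock genes had 0 of 18 called and 6 at an unadjusted p under 0.05 (33.3%), and Hspa8 stood at 22654 and 21959 on day 6 and 21937 and 23136 on day 1.5 with overlapping arrays. Oxidative stress genes of NRF2 had 0 of 24 called (3 unadjusted, 12.5%), metal response genes 0 of 6 (0 unadjusted) and immediate early genes 0 of 21 (7 unadjusted, 33.3%), with Fos at 727 and 798 on day 6 and 721 and 677 on day 1.5. Of 23 p53 targets, 0 rose and 1 fell, Sesn1, which fell by 0.27. Cdkn1a, the cell cycle inhibitor p21, had 1183 and 1215 on day 6 and 1280.1 and 1192 on day 1.5, with overlapping arrays. For tamoxifen as a ligand or a foreign compound, estrogen receptor targets had 0 of 15 called (3 unadjusted) and the xenobiotic response 0 of 11 (4 unadjusted, 36.4%). The difference between these lists and the stress response lists was not tested.

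Keratins and annexins of simple epithelia made up the list with the highest median, 0.49. They had 8 of 14 members called higher (1.09% of all genes were) and 0 lower (0.473%). Krt8 and Krt18 encode the keratin pair of simple epithelia, and their proteins pair in the same filaments. Krt8 had intensities of 3962 and 4078 on day 6 and 2175 and 2157 on day 1.5 (log2 fold change 0.89 ± 0.06, limma adjusted p = 7.7e-04). Krt18 had 2114 and 2122 on day 6 and 1245 and 1198 on day 1.5 (log2 0.79 ± 0.08, adjusted p = 0.0046), and Krt19 had 536 and 519.7 on day 6 and 301 and 281 on day 1.5 (log2 0.86 ± 0.06, adjusted p = 7.7e-04). The replicates of each gene lay close together on both days, and the 3 calls held without any 1 of the 4 arrays. Anxa3, which encodes a calcium-dependent membrane-binding protein, had 478 and 512 on day 6 and 319 and 281 on day 1.5 (log2 0.73 ± 0.08, adjusted p = 0.0063). Krt7 and Anxa5 rose by 0.53 and 0.53. Of the 8 calls, 5 were left without day 6 replicate 1, 3 without day 6 replicate 2 and 4 without either day 1.5 replicate. Dsp, which encodes desmoplakin, the protein that anchors keratin filaments at desmosomes, was not on the list and also rose, with 903 and 964 on day 6 and 484 and 529 on day 1.5 (log2 0.88 ± 0.07, limma adjusted p = 0.0033).

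On day 3 most of these genes stood lower than on either other day. Krt8 stood at 2175 and 2157 on day 1.5, at 659.8 and 595 on day 3 and at 3962 and 4078 on day 6. Anxa3 stood at 319 and 281 on day 1.5, at 57.3 and 51.9 on day 3 and at 478 and 512 on day 6. The day 3 arrays were the lowest of the control arrays for both. In control cells of day 3 against day 1.5, 11 of the 14 list members were called lower (18.2% of all genes were) and 0 higher (9.12%), and in day 6 against day 3, 12 were called higher (19.5%) and 0 lower (8.01%). The list's median log2 fold change was -0.91 for day 3 against day 1.5 and 1.17 for day 6 against day 3, each larger in size than its 0.49 for day 6 against day 1.5. Dsp had 529 and 570.3 on day 3, above its day 1.5 values on average and below its day 6 values. Day 3 cells had been growing for 3 days since plating, longer than day 1.5 and day 6 cells had since plating or the split.

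Actin skeleton genes that SRF and YAP drive also changed. Of 24, 7 rose (1.09% of all genes did) and 1 fell (0.473%) by day 6 relative to day 1.5, with a median of 0.15. Tagln, which encodes the actin-binding protein transgelin, had 1158 and 1269.5 on day 6 and 760.2 and 745 on day 1.5 (log2 fold change 0.69 ± 0.06, limma adjusted p = 0.0041). Acta2, smooth muscle actin, had 1034 and 1076 on day 6 and 726 and 684 on day 1.5 (log2 0.58 ± 0.11, adjusted p = 0.034), read by a probe set that may share sequence with other transcripts. Acta1, skeletal muscle actin, had 213 and 234 on day 6 and 162 and 110.5 on day 1.5 (log2 0.74 ± 0.15, adjusted p = 0.048). The day 6 arrays were higher in all 3, but on the log2 scale the 2 day 1.5 arrays of Acta1 differed more from each other than the lower day 6 array did from the higher day 1.5 array. The tropomyosin genes Tpm1 and Tpm4 rose by 0.44 and 0.46. Ccn2, a secreted matrix protein gene and a standard YAP target, was lower on day 6, with 2015 and 2043 on day 6 and 2759.6 and 2680.0 on day 1.5 (log2 -0.42 ± 0.06, limma adjusted p = 0.018). The bulk actins Actb and Actg1 did not pass, at 0.00 and 0.03. On day 3, 17 of the 24 were called lower than on day 1.5 (18.2% of all genes were) and 0 higher (9.12%). Tagln stood at 175 and 188 and Ccn2 at 686 and 774 on day 3. Of the 7 calls, 1 or 2 were left when any 1 array was left out: 2 without day 1.5 replicate 1 and 1 without each of the others.

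The Acta1 promoter is shown because SRF is known to bind a CArG box, a search added after the values had been seen. The box was found in 2 of the 6 risen members that had a sequence (33.3%), Acta1 and Cnn2, in 4 of 13 other measured members (30.8%) and in 439 of 27025 promoters (1.62%). In Acta1 it lay 73 to 64 bases before the start (RefSeq, GRCm38.p6, chr8:123894776-123895025, minus strand), and capitals mark it.
Acta1: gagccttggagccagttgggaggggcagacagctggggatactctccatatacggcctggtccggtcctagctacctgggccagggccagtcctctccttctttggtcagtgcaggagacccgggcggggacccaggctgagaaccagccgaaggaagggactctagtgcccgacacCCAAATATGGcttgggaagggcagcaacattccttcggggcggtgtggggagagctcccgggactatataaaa
The shares of risen and other members were close to each other.

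Acta2 and Tagln are also markers of fibroblasts, which are used as feeder cells under embryonic stem cells. Of the 13 fibroblast markers 12 were measured, and 3 of them rose: Acta2, Tagln and Col1a1, the last a collagen gene near the array median at 63.9 and 79.0 on day 6 and 43.8 and 50.0 on day 1.5. The summed intensity of the 12 was 3956 and 4215 on day 6 and 3295 and 3320 on day 1.5. Of the 12, 6 lay below the array median, among them Dcn at 31.4 and 27.1 on day 6 and 29.4 and 32.6 on day 1.5, Col3a1 at 11.4 and 13.2 on day 6 and 11.1 and 9.95 on day 1.5, and Postn at 24.9 and 25.0 on day 6 and 23.2 and 19.3 on day 1.5. The part of fibroblasts in the rise was not tested, and in RNA from whole cultures more cells of a type and more RNA per cell cannot be told apart.

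**Figure D3:**
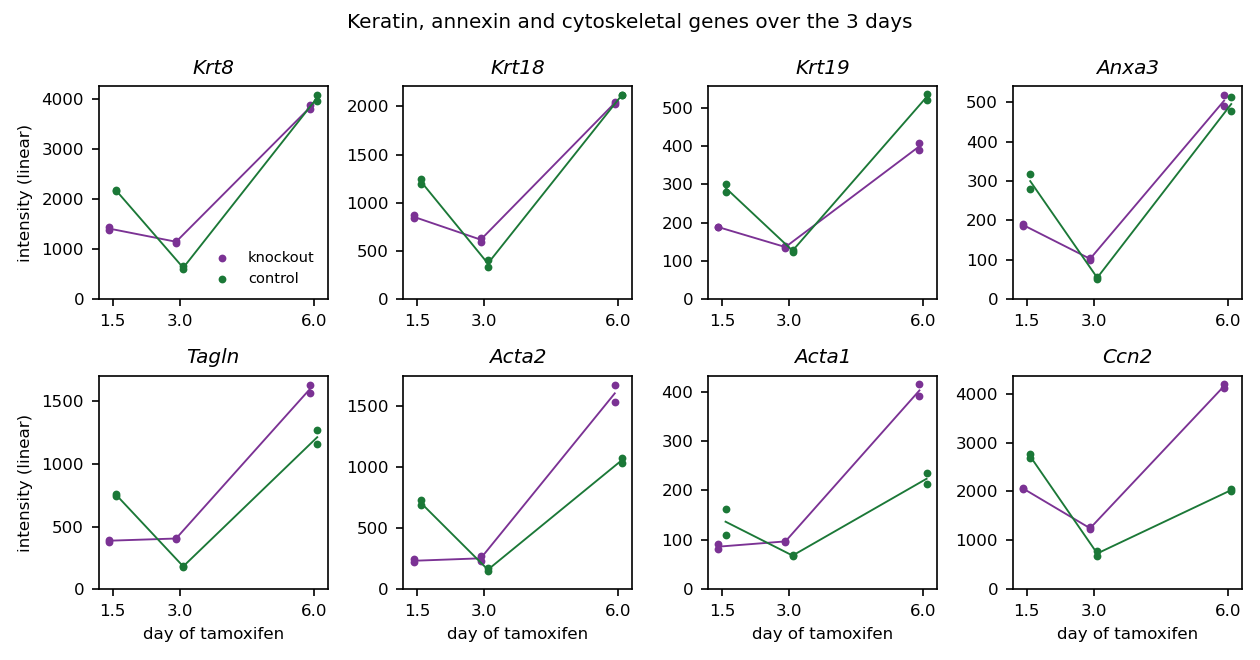
Intensities of 8 keratin, annexin and cytoskeletal genes on days 1.5, 3 and 6, with knockout cells in purple and control cells in green, points for the 2 arrays of a group and lines through their means. In control cells each of the 8 was lowest on day 3, and all except Ccn2 ended above their day 1.5 level.

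The largest rise of all was in Efemp1, which encodes the extracellular matrix protein fibulin 3. It had intensities of 61.5 and 74.0 on day 6 and 26.5 and 24.0 on day 1.5, a 2.67-fold change (log2 1.42 ± 0.14, limma adjusted p = 0.0046). Csn3, the milk protein kappa casein, had 69.4 and 81.6 on day 6 and 39.7 and 29.8 on day 1.5 (log2 1.13 ± 0.14). Prss23, a serine protease, had 131 and 146 on day 6 and 62.3 and 67.8 on day 1.5 (log2 1.09 ± 0.12), and Sema3c, a secreted guidance protein, had 93.9 and 102 on day 6 and 48.7 and 46.3 on day 1.5 (log2 1.04 ± 0.14). These 4 were the genes that rose 2-fold or more, and the day 1.5 intensities of Efemp1 and Csn3 lay below the array median. Pmp22, a myelin and junction membrane protein gene, Cubn, a receptor for vitamin B12 uptake that the visceral endoderm also makes, Stbd1, a glycogen-binding protein gene, and Gbp2, an interferon-induced GTPase gene, followed at 0.96, 0.96, 0.91 and 0.88. Cubn had 229 and 231 on day 6 and 118 and 118 on day 1.5, was called without any 1 array, and was the only called gene of 20 on the primitive endoderm list. The 9 primitive endoderm markers had 0 called, with summed intensities of 3506 and 3605 on day 6 and 3396 and 3330 on day 1.5. Gbp2 was likewise the only called gene of 26 interferon-stimulated genes.

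The largest fall was in Ceacam20, a cell surface protein gene, with 33.2 and 32.9 on day 6 and 90.5 and 64.7 on day 1.5 (log2 fold change -1.21 ± 0.16, limma adjusted p = 0.012). It was the only gene to fall 2-fold or more. Its 2 day 1.5 arrays differed widely, but both day 6 arrays lay below the array median. Among brighter genes, the small nucleolar RNA host gene Snhg3 had 1262 and 1298 on day 6 and 1997 and 1923 on day 1.5 (log2 -0.61 ± 0.08, adjusted p = 0.01). Slc6a8, the creatine transporter gene, had 1351 and 1290.4 on day 6 and 1984 and 1963 on day 1.5 (log2 -0.58 ± 0.07, limma adjusted p = 0.0078), and Gpx2, a glutathione peroxidase gene, had 734 and 751 on day 6 and 1077 and 1064 on day 1.5 (log2 -0.53 ± 0.06, adjusted p = 0.0063). Day 6 was below day 1.5 on every array of the 3. Spink1, a trypsin inhibitor gene, fell by 0.61, and the glutamine transporter gene Slc38a5 fell by 0.65. Pla2g7, Sult6b1, Casq1 and Aire changed by -0.65, -0.58, -0.57 and -0.54, and the dim genes Fam184b and Ajm1 by -0.67 and -0.53. These 12 were the largest falls among genes with a proper name, as gene models and clones known by a number were not named. None of the 12 held its call without each of the 4 arrays in turn.

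Imprinted genes, of which the cell expresses 1 parental copy, had 4 of 24 called higher (1.09% of all genes were) and 0 lower (0.473%). Grb10, an adaptor that restrains growth factor signalling, had 2364 and 2495 on day 6 and 1359 and 1324 on day 1.5 (log2 fold change 0.86 ± 0.05, limma adjusted p = 5.5e-04), the lowest adjusted p of the genes named here, and kept its call without any 1 array. Igf2, the fetal growth factor gene, had 397 and 442 on day 6 and 301 and 283 on day 1.5 (log2 0.52 ± 0.07, adjusted p = 0.015). Phlda2 and Impact rose by 0.30 and 0.25. Impact encodes an inhibitor of the eIF2 kinase GCN2, and the chip read it at 1767 and 1734 on day 6 and 1504 and 1442 on day 1.5. The count of 4 was 2 without day 6 replicate 1 and 1 without each of the other arrays in turn.

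Genes of lysosomes and autophagy had 4 of 25 called higher (1.09% of all genes were) and 0 lower (0.473%). The 4, all genes of lysosomal enzymes, rose by about the same amount: Hexa 0.31, Ctsa 0.31, Gusb 0.29 and Ctsl 0.29. The 4 calls were lost without any 1 array. On day 3, Hexa stood at 3581 and 3640.3 in control cells, above both its day 6 values of 2267 and 2423 and its day 1.5 values of 1889.8 and 1894.

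Lists for cell identity differed in how many members were called. Core and naive pluripotency genes had 0 of 31 called by limma and 5 at an unadjusted p under 0.05 (16.1%, against 15.2% of all genes). Of 16 primed epiblast genes 1 rose and 3 fell, or 25.0% called against 1.57% of all genes, and 8 had an unadjusted p under 0.05. They were the kinase gene Pim2 by 0.45, against the Wnt effector gene Lef1 at -0.47, the DNA methylation cofactor gene Dnmt3l at -0.26 and the signalling ligand gene Nodal at -0.26. The 4 calls were lost without any 1 of the 4 arrays. Of 15 trophoblast genes 4 rose and 0 fell, and these were the keratin genes Krt7, Krt8, Krt18 and Krt19 described above, of which 3 held without any 1 array. Of the 7 markers of trophoblast only Krt7 rose, and the markers' summed intensity was 1973 and 1940 on day 6 and 1877 and 1922 on day 1.5. Lef1 had 139 and 148 on day 6 and 205 and 193 on day 1.5, and with Notum, a secreted Wnt inhibitor gene at -0.39, it made up the 2 falls of 25 Wnt pathway genes. Other called Wnt genes went the other way: Wls and Wnt4, which were not on the list, rose by 0.65 and 0.60. Both were picked after their values were seen. The neural progenitor filament gene Nes rose, with 321 and 321 on day 6 and 224 and 231 on day 1.5, as the only called gene of 11 on the neural list. Of 23 cyclins and related genes, the inhibitor gene Cdkn1b rose by 0.36 and Ccnd2 changed by -0.33. In each of the following growth lists the share at an unadjusted p under 0.05 was below the 15.2% of all genes. By limma DNA replication had 0 of 30 called (0 at an unadjusted p under 0.05), mitosis 0 of 25 (3), ribosome biogenesis 0 of 34 (1), cytosolic ribosomal proteins 0 of 44 (1), mitochondrial ribosomal proteins 0 of 76 (6) and oxidative phosphorylation 0 of 78 (3). Bhlhe40, a repressor in the circadian clock, rose by 0.67, and Dusp4, a phosphatase that restrains ERK, by 0.50.

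**Figure D4:**
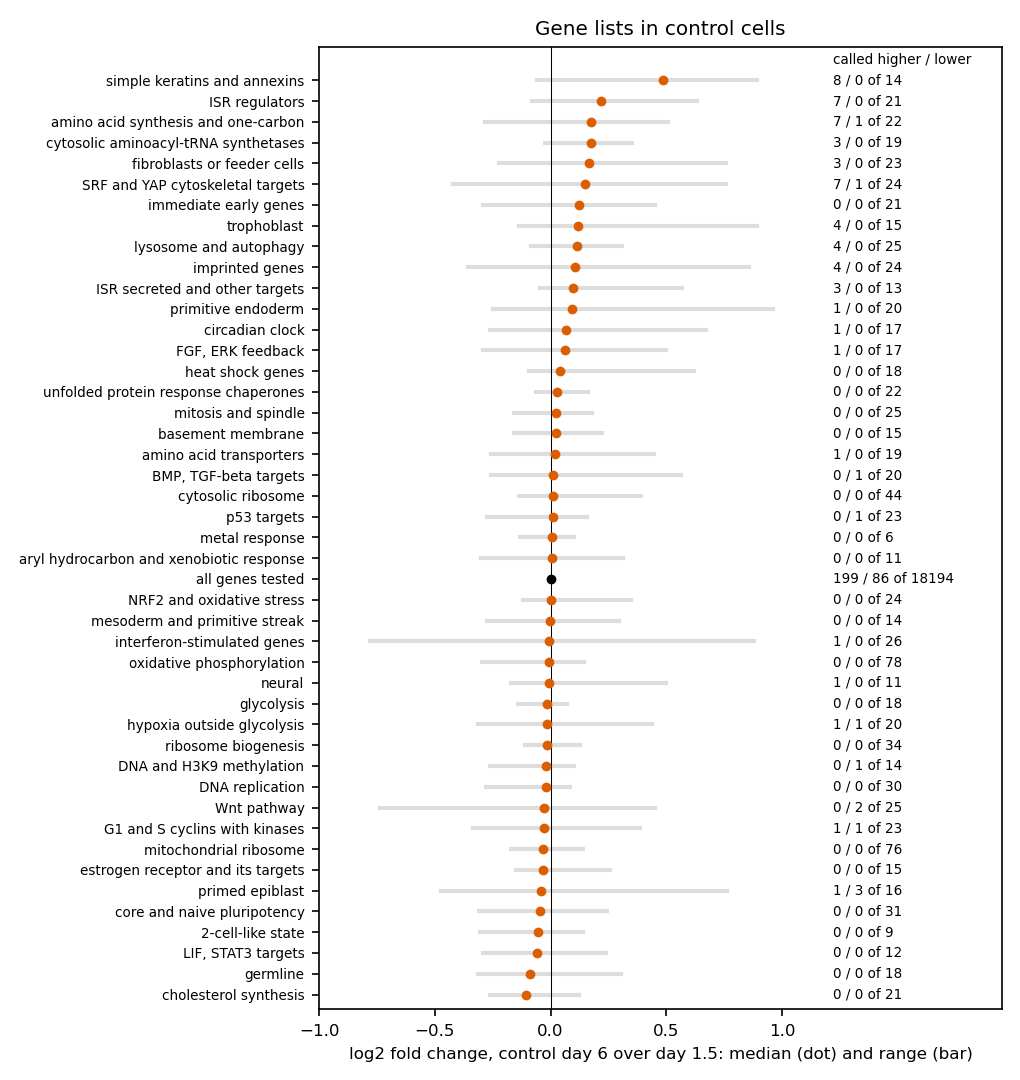
Median (dot) and range (grey bar) of the log2 fold change of control day 6 over day 1.5 for 44 gene lists and for all genes (black dot, no bar), with the counts called higher and lower at the right. Simple keratins and annexins have the highest median, 0.49, and the pluripotency, ribosome and cell cycle lists lie near 0.

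The same span was measured in the knockout cells, on 4 other arrays. Of the 199 genes that rose in controls, 104 also rose in knockout cells of day 6 against day 1.5 (52.3%, against 15.9% of all genes) and 32 fell (16.1%, against 14.3% of all genes). Of the 86 that fell in controls, 23 fell in knockout cells (26.7%) and 29 rose (33.7%). The change itself differed between knockout and control cells for 3516 of all genes (19.3%). Among the 199 that rose in controls it was greater in knockout cells for 36 and smaller for 79, and 65 rose in both with no called difference. Among the 86 that fell in controls the difference was above 0 for 51 and below 0 for 7. The control arrays that chose these genes also enter the difference, so these last counts are a description.

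Several keratin and actin skeleton genes rose more in knockout than in control cells. The difference was above 0 for 7 and below 0 for 1 of the 14 keratin and annexin genes, and above 0 for 11 and below 0 for 2 of the 24 SRF and YAP targets, against 9.32% above and 10.0% below 0 over all genes. Krt8 rose by 1.44 in knockout cells, with 3789 and 3867 on day 6 and 1382 and 1437 on day 1.5, against 0.89 in controls (difference 0.55 ± 0.09, limma adjusted p = 0.0022). Tagln rose by 2.05 in knockout cells, with 1631 and 1569.6 on day 6 and 377 and 396 on day 1.5, against 0.69 in controls (difference 1.36 ± 0.09, adjusted p = 2.2e-05). Both genes started lower in knockout cells on day 1.5. For Efemp1 the change was 1.38 in knockout cells and 1.42 in controls, and no difference was called (difference -0.04 ± 0.19, limma adjusted p = 0.91). Bhlhe40 was at 0.67 in knockout cells and 0.67 in controls.

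For the stress response genes the change over the span differed between knockout and control cells in 44 of the 94 members measured (46.8%, against 19.3% of all genes). The difference was below 0 for 30 (31.9%, against 10.0% of all genes) and above 0 for 14 (14.9%, against 9.32%). The 5 lists were not alike in this. The difference was below 0 for 13 and above 0 for 2 of 22 amino acid synthesis genes. For 19 tRNA synthetases the counts were 8 below and 0 above. They were 3 below and 5 above for 21 regulators, 2 and 3 for 13 secreted and other targets, and 4 and 4 for 19 transporters. Of the 94 members, 21 rose in controls, and of these 5 rose and 5 fell in knockout cells. Among these 21 the difference was below 0 for 15 and above 0 for 2. The choice of genes by their rise in the same control arrays favours that count. In knockout cells Pck2 fell by 0.90, with 555 and 571 on day 6 and 991 and 1115 on day 1.5, against a rise of 0.51 in controls (difference -1.41 ± 0.11, limma adjusted p = 4.6e-05). Psat1, Gpt2, Psph and Vegfa also fell in knockout cells, at log2 fold changes of -0.19, -0.25, -0.22 and -0.35. Asns stood at 6713 and 6757 on day 6 and 6900.4 and 6795 on day 1.5 in knockout cells, where it did not pass (log2 fold change -0.02), and the difference from controls was -0.32 ± 0.06 (adjusted p = 0.008). Ddit3 and Atf5 rose further in knockout cells, by 1.52 and 1.01, with differences of 0.89 and 0.47. Grb10 was lower on day 6 in knockout cells (-0.22), against its rise in controls (difference -1.08 ± 0.07, limma adjusted p = 2.0e-05).

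Among genes that fell in controls, several rose in knockout cells. Spink1 had 1128 and 1126 on day 6 and 299.7 and 294 on day 1.5 in knockout cells, a log2 fold change of 1.92, against -0.61 in controls (difference 2.54 ± 0.11, limma adjusted p = 3.2e-06). Ccnd2, which encodes cyclin D2, changed by 1.46 in knockout cells and -0.33 in controls (difference 1.79), Hipk2, a kinase gene, by 1.53 in knockout cells and -0.48 in controls (difference 2.01), and Ccn2 by 1.01 in knockout cells and -0.42 in controls (difference 1.44). Snhg3 fell in both, at -1.15 in knockout cells and -0.61 in controls (difference -0.54 ± 0.11, limma adjusted p = 0.0079).

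**Figure D5:**
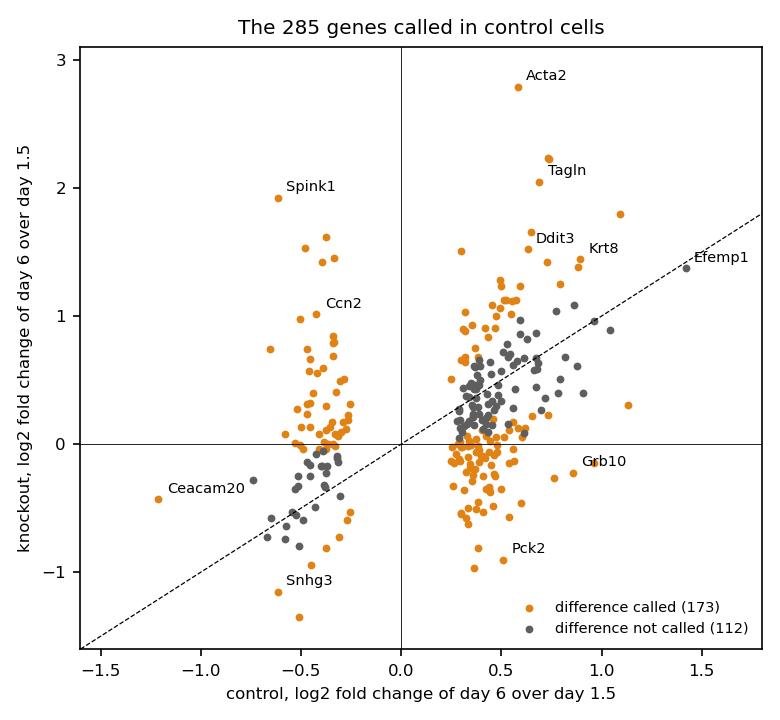
Log2 fold change of day 6 over day 1.5 in knockout cells (y) against control cells (x) for the 285 genes called in controls, with called differences between knockout and control cells in orange and others in grey, and equal change as the dashed line. The 32 genes that rose in controls and fell in knockout cells lie at the lower right, and the 29 that fell in controls and rose in knockout cells at the upper left.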

How the data were processed

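RNA was measured as probe set intensity on 12 Affymetrix mouse genome arrays, 6 groups of 2. The deposited values are linear intensities that the authors made with RMA, which corrects background, normalizes across arrays and summarises probes, per the submitters' processing notes. The version is not given in the sources used here. RMA pulls small changes and dim genes toward 0, and the number of arrays limits the precision.

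Of 45101 probe sets, 34958 carried 1 gene symbol in the platform annotation, 932 several and 9211 none. Each gene took the probe set with the highest mean log2 intensity over the 12 arrays, which gave 18194 genes. Probe sets ending in _s_at or _x_at may share sequence with other transcripts. Log2 intensities were fitted with limma 3.58.1 in R 4.3.3 (lmFit with 1 coefficient for each of the 6 groups, all 12 arrays, eBayes, 6 residual degrees of freedom plus a prior of 3.04), and p-values were adjusted by Benjamini-Hochberg over all 18194 genes. On simulated data with the same design, tested on 18194 genes, the fit for control day 6 against day 1.5 found 35.8% of true 1.25-fold changes, 68.7% of 1.5-fold ones and 93.9% of 2-fold ones. Errors on log2 fold changes are standard errors, with 2 arrays a group.

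The comparison, the 44 gene lists and the genes named were chosen with earlier results of these data known. Genes named were the 12 largest rises and 12 largest falls past the threshold (of genes whose arrays did not overlap, and not of gene models or clones known by a number), up to 6 called and 3 bright uncalled members of each list (any member of the stress response lists), 8 genes per direction with the largest knockout minus control difference, and some fixed markers. Promoter sequences were matched by symbol to RefSeq. Figures were drawn with matplotlib 3.10.9. Alternatives covered the arrays fitted, the replicate number as a block, variance moderation, array weights, dim genes, probe set choice, scaling and a pseudocount.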

Additional observations from a re-analysis of the deposited data

Results flagged for a closer look

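The change of day 6 against day 1.5 differed between knockout and control cells for 3516 genes by limma's test of the difference. Among them were 49 genes that were called in controls and that the naming rule took in. Differences are knockout minus control on the log2 scale.

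For 26 the difference was above 0. Actin skeleton, keratin and junction genes were Acta2 2.21, Acta1 1.49, Ccn2 1.44, Tagln 1.36, Anxa3 0.69, Krt8 0.55, Ajm1 0.54, Dsp 0.50 and Krt18 0.46. Genes of signalling and epiblast identity were Hipk2 2.01, Ccnd2 1.79, Lef1 1.21, Igf2 0.60, Nodal 0.57, Dnmt3l 0.49 and Impact 0.26. Stress and metabolic genes were Ddit3 0.89, Glul 0.79, Slc6a8 0.65, Hexa 0.59, Atf5 0.47 and Sesn1 0.39. The rest were Spink1 2.54, Pla2g7 1.40, Ceacam20 0.78 and Prss23 0.71.

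For 23 the difference was below 0. The stress response and amino acid genes among them, whose lists the naming rule took in full, were Pck2 -1.41, Vegfa -0.79, Gpt2 -0.66, Slc6a9 -0.61, Psat1 -0.56, Psph -0.54, Cebpb -0.50, Nupr1 -0.49, Phgdh -0.43, Stc2 -0.43, Sars -0.34, Chac1 -0.32, Asns -0.32, Aldh18a1 -0.31 and Yars -0.28. The others were Cubn -1.11, Grb10 -1.08, Dusp4 -0.85, Phlda2 -0.85, Csn3 -0.82, Col1a1 -0.55, Snhg3 -0.54 and Gusb -0.28. Of the 49, 11 lost the call in at least 1 of 8 fits that each left out 1 array: Ajm1, Aldh18a1, Ceacam20, Chac1, Col1a1, Csn3, Gusb, Impact, Krt18, Prss23 and Yars.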

How the results depend on the processing

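The 285 calls of control day 6 against day 1.5 depended on the fit. Their arrays did not overlap between the days, so most alternatives could not change a sign. Those that could were averaging a gene's probe sets, median centring and quantile normalization, under which 284, 285 and 285 genes kept it. The count was 0 with only the 4 compared arrays and 6 with only the 6 control arrays, fits that have fewer residual degrees of freedom. It was 894 with an intensity trend and robust moderation, 660 with the dimmest 40% of genes left out, 187 with the mean of all probe sets and 550 with a pseudocount of 16. Leaving out 1 of the 4 arrays gave 18 to 51. The cause of these shifts was otherwise not tested. The count for control day 3 against day 1.5 was 3156 to 3665 without 1 day 1.5 array, and for control day 6 against day 3 it was 3072 to 3315 without 1 day 6 array. Fits of the 8 arrays of days 1.5 and 6, and of knockout cells with 1 array left out, were added after seeing the data; the first called 217.

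The counts of members called higher moved as follows. With only the 4 compared arrays, all 6 lists here had 0: stress response regulators, amino acid synthesis, tRNA synthetases, SRF and YAP targets, fibroblast genes and keratins with annexins. The fibroblast list here held 23 measured genes, 3 of them called higher in the fit of all 12 arrays. It is not the set of 12 markers described above. With only the 6 control arrays all had 0 except keratins with annexins, which had 2. Trend and robust moderation gave 11 regulators, 12 amino acid synthesis genes, 12 tRNA synthetases and 5 fibroblast genes. Leaving out dim genes gave 11 amino acid synthesis genes and 10 tRNA synthetases, and the pseudocount gave 8 tRNA synthetases and 5 fibroblast genes. The mean of all probe sets gave 4 SRF and YAP targets and 1 fibroblast gene. With 1 array left out there were 0 to 2 regulators, 0 amino acid synthesis genes, 0 tRNA synthetases, 1 fibroblast gene, 1 to 2 SRF and YAP targets and 3 to 5 keratins and annexins.

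Replicate numbers are in the titles. Deviations of samples with the same number had correlations of -0.0573 to 0.173 between groups, the highest for control day 1.5 and control day 3. With 2 arrays per group, these correlations cannot settle whether the numbers mark a shared culture or batch. With the replicate block 210 genes were called, 149 higher and 61 lower, of which 202 were among the 285. Of the 76 called genes that the naming rule took in, 21 lost the call, with limma adjusted p-values of 0.0511 to 0.078. Called genes named outside that rule are not in this count. The tRNA synthetases then had 1 call, imprinted genes 2 and primed epiblast falls 1. The only amino acid transporter (Slc6a9), interferon (Gbp2) and cyclin list (Cdkn1b) rises and the only amino acid synthesis (Glul) and p53 target (Sesn1) falls each went to 0.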

Other observations

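Some called genes outside the lists were picked one by one after their values were seen, and they stand for no group. Among the 199 that rose, Marveld3, a tight junction protein gene, had a log2 fold change of 0.65, Gsn (gelsolin) 0.57, Itgb8 (an integrin beta chain) 0.47 and Cldn7 (claudin 7) 0.44. The neuronal filament genes Nefm and Prph rose by 0.73 and 0.46. Among these only Marveld3 was called without any 1 of the 4 arrays. Among the 86 that fell, Sohlh2 had -0.47 and Tex19.1 -0.45, both genes known from germ cells, while the germline list had 0 of 18 called by limma, with 5 at an unadjusted p under 0.05 and a median of -0.09.

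Malat1, a long nuclear RNA, had the widest uncalled shift among bright genes, at a log2 fold change of -0.84 ± 0.29 SE (limma adjusted p = 0.21), and was picked after its values were seen.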
